A study of Mus musculus with 12 samples.

Results

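Complement genes were followed in 2 cell populations of wild-type mice (adult C57BL/6J males in the study's methods) with acute kidney injury. The 9 genes are C3, C4b, Cfb, Cd55, Cd59a, Cr1l, C1qa, C1qb and C1qc, and they were chosen by name as table rows carrying exactly these symbols. All 9 had a row among the 50433 gene rows of the table of tubular epithelial cells (TECs) and among the 50434 rows of the table of blood neutrophils (PMN). Injury was induced in every mouse by clamping the renal pedicles and releasing them, which is ischemia-reperfusion injury (IRI). Glutamine was given intravenously as the dipeptide alanyl-glutamine and vehicle was saline, and all cells were taken 24 hours after IRI. The 4 groups held 3 libraries each: TECs with vehicle (replicates 3, 4 and 5), TECs with glutamine (1, 2 and 3), PMN with vehicle and PMN with glutamine. PMN replicate numbers are only names. None of these 12 libraries is from an uninjured mouse, so every value below is from an animal after IRI. TECs were sorted as CD45- and Prominin-1+ cells of the kidney, and the study names Prominin-1 as a marker of proximal tubules where it describes cultured TECs.

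Complement is a protein cascade of innate immunity. The classical pathway starts when C1q, a bundle of A, B and C chains, binds antibody or dying cells and its associated proteases cleave C4 and C2. The alternative pathway starts on C3 itself, with factor B supplying the protease of its convertase, and every pathway meets at the cleavage of C3. Host cells protect themselves with membrane regulators: Cd55 speeds the decay of convertases, Cr1l (Crry, the main rodent regulator) does this and also serves as cofactor for the inactivation of C3b and C4b, and Cd59a blocks the membrane attack complex. Macrophages are the main source of C1q in most tissues, while kidney tubules can make C3 and factor B themselves. The alternative pathway is known to take part in ischemic kidney injury in mice.

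The genes lie on 4 chromosomes of the mouse genome (GENCODE M21 on GRCm38, the coordinates of mm10). C3 spans chr17:57203970-57228136, and C4b (chr17:34728380-34743882) and Cfb (chr17:34856374-34862518) lie in the complement cluster of the major histocompatibility region on the same chromosome, all on the minus strand. Cd55 (chr1:130439027-130462744) and Cr1l (chr1:195097382-195131586) are on the minus strand of chromosome 1, and Cd59a (chr2:104095801-104115354) is on the plus strand of chromosome 2. C1qb (chr4:136880129-136886187), C1qc (chr4:136889804-136893065) and C1qa (chr4:136895917-136898803) stand side by side on the minus strand of chromosome 4. The coding gene Gm20547 shares 79.5% of the exon bases of Cfb on the same strand and was listed at 0 in all 12 libraries.

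The DNA just before the start of transcription was read for the genes with an entry in the RefSeq table (GRCm38.p6), which were C3, Cd55, Cd59a, Cr1l, C1qb and C1qc. The 250 bases before each start were searched on both strands for 4 letter patterns. These were GAGGAA, a core bound by ETS factors such as the myeloid factor PU.1, GGG followed after any 2 bases by TTTCC for NF-kB, TTGCNNAA for C/EBP factors and GAAA followed after any 2 bases by GAAA for interferon-response factors. They occurred in 23.3%, 1.41%, 9.56% and 2.98% of all 32851 windows of that length, respectively. The window of C3 held TTGCGAAA at bases -45 to -38 from the start. Both C1q windows held the GAGGAA core, at -30 to -25 in C1qb and on the opposite strand at -193 to -188 in C1qc. Cd59a held GAGGAA at -62 to -57 and GAAAGGGAAA at -187 to -178, and Cd55 and Cr1l held none of the 4. C3 is printed as the component on which the pathways meet, and the C1q genes as the chains counted at low level in TECs and at high level in PMN, all 5′ to 3′ with the matches in capitals. The matches do not overlap each other. All positions are counted from the RefSeq start. For C1qc that start lies inside the GENCODE gene, and its searched window was chr4:136892915-136893164. Only the 99 bases of it before the GENCODE gene are printed, so the C1qc position does not count from the end of the printed stretch.
C3, chr17:57228137-57228386, minus strand: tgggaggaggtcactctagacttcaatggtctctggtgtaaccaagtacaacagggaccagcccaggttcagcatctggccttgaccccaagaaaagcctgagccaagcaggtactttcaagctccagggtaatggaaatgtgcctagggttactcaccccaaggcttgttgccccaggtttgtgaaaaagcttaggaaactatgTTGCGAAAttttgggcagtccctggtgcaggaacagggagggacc
C1qb, chr4:136886201-136886450, minus strand: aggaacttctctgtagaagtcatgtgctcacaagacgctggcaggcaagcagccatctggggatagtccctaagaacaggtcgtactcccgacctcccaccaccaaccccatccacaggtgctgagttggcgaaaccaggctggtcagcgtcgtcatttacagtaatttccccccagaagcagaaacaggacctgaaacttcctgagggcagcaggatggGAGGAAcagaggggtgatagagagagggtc
C1qc, chr4:136893066-136893164, minus strand: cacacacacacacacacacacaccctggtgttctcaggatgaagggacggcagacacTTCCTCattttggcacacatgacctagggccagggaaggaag
These matches are descriptions of letters, and binding at them was not measured.

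The TEC libraries held between 5397371 counts (glutamine 2) and 10223463 counts (vehicle 4), and the PMN libraries between 20226512 and 21879769. Levels are CPM (counts-per-million, each count divided by the TMM-scaled library total), and 3 counts correspond to between 0.269 and 0.602 CPM in TECs and between 0.137 and 0.158 CPM in PMN. The sorted TECs carried their gate's markers, with Prom1 between 64.6 and 83.5 CPM and Ptprc, the gene of CD45, between 0.102 and 2.74 CPM. They held 6 listed proximal tubule genes at 3334 to 5408 CPM and 3 of the thick ascending limb at 1037 to 2264 CPM. They also held 6 endothelial genes at 317 to 528 CPM and 3 erythroid genes at 341 to 2935 CPM, whose part in the values was not tested. Libraries labelled as neutrophils were led by neutrophil genes, whose 12 listed markers summed to between 29790 and 82930 CPM. They also held 14 macrophage genes, which summed to between 9598 and 13945 CPM, and 5 antigen-presentation genes at 7380 to 18446 CPM. The 4 defining macrophage genes (Adgre1, Csf1r, Cx3cr1 and Ms4a7) were counted in them. One PMN library, vehicle 2, stood apart by endothelial genes (1873 CPM over 6 genes, against 2.76 to 91.0 CPM in the other 5), and vehicle 1 by genes of the thick ascending limb (1026 CPM, against 1.51 to 33.7 CPM). PMN libraries differed far more among themselves than TEC libraries, with a common biological coefficient of variation of 1.39 against 0.367. In bulk RNA, fewer cells of a type and less RNA per cell cannot be told apart.

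In TECs Cfb, Cd59a, C3 and Cr1l were at high level, and the C1q chains, C4b and Cd55 were at low level. Levels between genes were compared as CPM per kilobase of the longest coding transcript. The mean over the 6 libraries was 62.0 for Cfb, 34.0 for Cd59a, 16.1 for C3, 15.3 for Cr1l, 5.55 for C1qa, 3.87 for C1qb, 2.52 for C1qc, 0.849 for C4b and 0.134 for Cd55. Cfb was above Cd59a in 6 of 6 libraries and their ranges were apart. C3 and Cr1l were neighbours within their spread, C3 being the higher in 4 of 6 libraries. Cr1l lay above C1qa in 6 of 6 libraries with ranges apart, whereas the ranges of C1qa, C1qb, C1qc and C4b ran into each other.

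**Figure D1:**
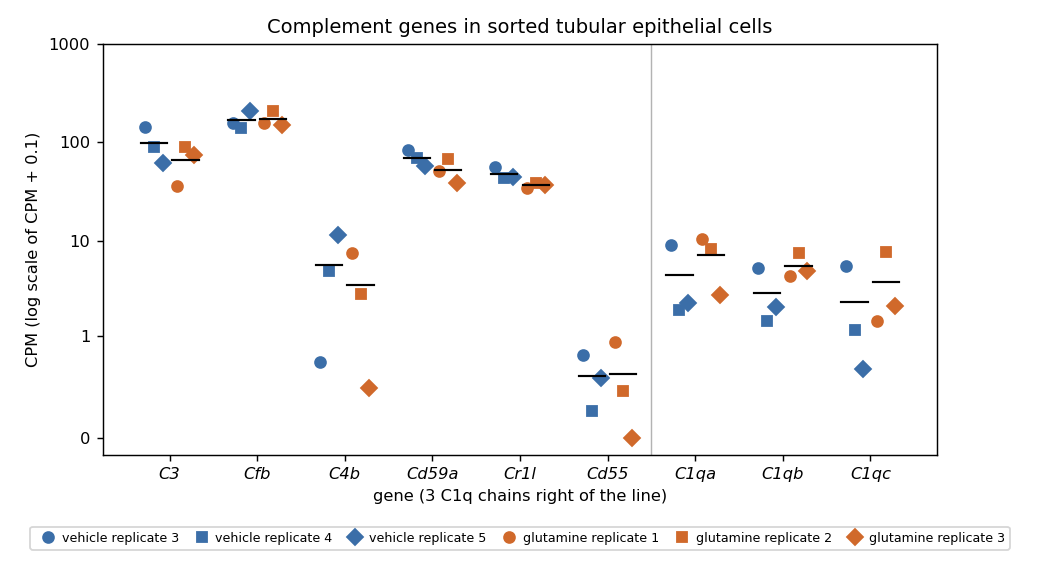
Level of the 9 complement genes in sorted tubular epithelial cells, in CPM on a log scale of CPM + 0.1, with 1 point per library, vehicle in blue and glutamine in orange. Black lines are the means of 3 libraries. Cfb, C3, Cd59a and Cr1l lie between 34.6 and 210 CPM in all 6 libraries, and among these 4 genes only the groups of Cr1l are apart.

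C3, the component on which all pathways converge, had 142, 89.5 and 62.5 CPM in vehicle replicates 3, 4 and 5. With glutamine it had 35.8, 91.0 and 74.0 CPM in replicates 1, 2 and 3. The highest library was a vehicle library and the lowest a glutamine library, but the other 4 were interleaved. The means were 98.1 ± 40.6 and 66.9 ± 28.3 CPM (SD, n = 3 each). The log2 fold change of -0.55 (SE 0.37) did not pass the test (edgeR's quasi-likelihood test, adjusted p = 0.547), and it was -0.19 without vehicle 3.

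Cfb, which encodes factor B of the alternative pathway, was the most abundant of the 9 in TECs and had the narrowest range, 1.51-fold between the highest and the lowest library. It measured 157, 139 and 210 CPM with vehicle and 157, 210 and 150 CPM with glutamine. The 2 groups covered nearly the same range. Means were 169 ± 36.6 and 172 ± 33.2 CPM (SD, n = 3 each), a log2 fold change of 0.03 (SE 0.23, adjusted p = 0.970 from edgeR). Its sign turned in 3 of the 6 fits that each left out 1 library, which gave values from -0.14 to 0.21.

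C4b, a C4 gene of the classical and lectin pathways, was scattered from 0.219 to 11.5 CPM, the lowest value being 2 counts. Vehicle libraries had 0.493, 4.93 and 11.5 CPM and glutamine libraries 7.45, 2.81 and 0.219 CPM. Each group held both high and near-empty libraries. The log2 fold change of -0.69 (SE 1.05, adjusted p = 0.815 from edgeR) became 0.36 without vehicle 5. The near-identical C4a had 0, 0 and 31 counts with vehicle and 4, 0 and 19 counts with glutamine, and short reads shared by C4a and C4b could be divided between them. C3 and C4b tended in opposite directions over the libraries (Pearson r = -0.59 over 6 libraries, log2 scale), while C3 and Cfb had no common order (r = -0.05).

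Among the membrane regulators, Cr1l was the only one of the 9 genes whose groups did not overlap in TECs. Vehicle libraries had 56.2, 43.4 and 44.4 CPM and glutamine libraries 34.6, 38.4 and 37.3 CPM. Every glutamine library was thus below every vehicle library, an arrangement that 9.81% of the 14734 tested genes showed in this direction. The means were 48.0 ± 7.15 and 36.7 ± 1.94 CPM (SD, n = 3 each) and the log2 fold change was -0.39 (SE 0.21). This did not pass the test (edgeR, unadjusted p = 0.0978, adjusted p = 0.471), and 1 member in 8 is close to the background share.

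Cd59a, the inhibitor of the membrane attack complex, had 83.3, 70.3 and 57.2 CPM with vehicle. Glutamine libraries had 51.4, 67.9 and 38.8 CPM. The lowest 2 libraries were glutamine libraries, and glutamine 2 lay between the vehicle libraries. Means were 70.2 ± 13.1 and 52.7 ± 14.6 CPM (SD, n = 3 each), a log2 fold change of -0.42 (SE 0.25, adjusted p = 0.510 from edgeR). The log2 fold change was -0.24 without glutamine 3 and -0.64 without glutamine 2 (unadjusted p = 0.0425, adjusted p = 0.564 from edgeR). Cd59b, the second mouse Cd59 gene, was low, with 20, 11 and 3 counts in vehicle libraries and 9, 0 and 7 in glutamine libraries.

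Cd55, the decay accelerator, was near the detection limit in TECs and was removed by the expression filter. It had 6, 1 and 3 counts with vehicle and 7, 1 and 0 counts with glutamine. Only 2 of these libraries were above 3 counts, 1 of each group, and no difference was detectable at this depth. Cd55b, the second mouse Cd55 gene, was at 0 counts in all 6 TEC libraries.

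The C1q chains were counted at low level in TECs, and none passed the test. C1qa had 9.08, 1.88 and 2.24 CPM with vehicle and 10.5, 8.23 and 2.74 CPM with glutamine. C1qb had 5.23, 1.43 and 2.04 CPM with vehicle and 4.32, 7.43 and 4.82 CPM with glutamine. C1qc had 5.43, 1.16 and 0.408 CPM with vehicle and 1.44, 7.63 and 2.08 CPM with glutamine. For each chain vehicle 3 was the highest vehicle library and lay above at least 1 glutamine library, so that the groups overlapped.

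Summed over the chains, C1q made up 200, 50 and 46 counts with vehicle and 135, 116 and 88 counts with glutamine. These are 19.7, 4.48 and 4.69 CPM against 16.2, 23.3 and 9.65 CPM. The sum was highest in glutamine 2, followed by vehicle 3. Log2 fold changes were 0.69 (SE 0.68) for C1qa, 0.92 (SE 0.59) for C1qb and 0.64 (SE 0.94) for C1qc. Adjusted p-values from edgeR were 0.694, 0.536 and 0.806. Without vehicle 3 the values were 1.78, 1.65 and 2.18 (unadjusted p = 0.0217, 0.0201 and 0.0541, adjusted p = 0.492, 0.492 and 0.555 from edgeR), and without glutamine 2 that of C1qc was -0.40.

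Genes of the macrophage list were like C1q to unequal degrees over the TEC libraries. Of the 9 tested, all had a Pearson r with the C1q sum above 0, from 0.25 for Cx3cr1 to 0.99 for Tyrobp with a median of 0.63, and Csf1r had 0.29 (6 libraries, log2 CPM with 0.5 added). Tyrobp, a signalling adaptor of myeloid cells, had 198, 52 and 49 counts with vehicle and 129, 127 and 73 counts with glutamine. Of 10649 genes with a mean of at least 5 CPM, Tyrobp was the most like the C1q sum. Also among the nearest were Kptn, Pgam2 and Borcs7 at r = 0.98 each. The 14 macrophage genes summed to 68.3 to 102 CPM with vehicle and 85.7 to 182 CPM with glutamine, and all 14 had counts. The 4 defining ones summed to 36.4 to 43.6 CPM and 30.7 to 59.8 CPM, and of these Adgre1, which encodes F4/80, was at or near 0 (0 to 0.592 CPM). Of the 7 tested neutrophil genes, 6 had r above 0, with S100a8 at 0.90, and Cxcr2 had -0.42. The 12 neutrophil genes together had 103 to 247 CPM with vehicle and 122 to 265 CPM with glutamine. The part of these cells in the C1q values was not tested.

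**Figure D2:**
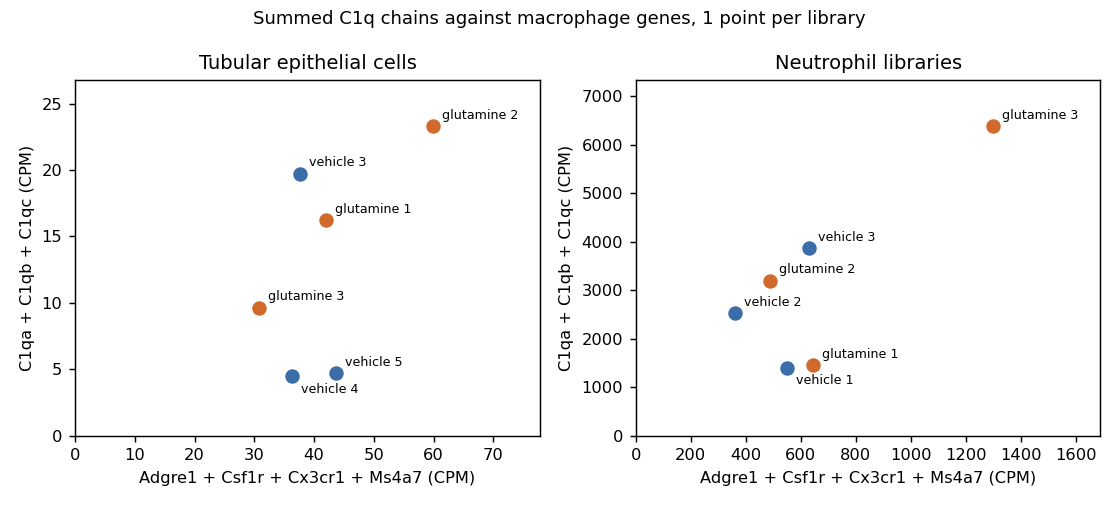
Summed CPM of C1qa, C1qb and C1qc (vertical axes) against the summed CPM of 4 defining macrophage genes (horizontal axes) in tubular epithelial cells (left) and neutrophil libraries (right), with 1 labelled point per library, vehicle in blue and glutamine in orange. Glutamine 2 on the left and glutamine 3 on the right are highest on both axes, and the other 5 libraries of each panel show no common order on the 2 axes.

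C3 and Cr1l did not share this order. C1q and C3 had r = 0.14 over the 6 TEC libraries, and C1q and Cr1l had r = -0.05. C3 was closest to Cr1l among the members (r = 0.78), followed by Cd59a (r = 0.63). Over all genes the most like C3 were Gpt2, a mitochondrial alanine aminotransferase (r = 0.997), Dctpp1, a nucleotide-pool pyrophosphatase (r = 0.994), Rprd1b (r = 0.99), Pigk, a subunit of the enzyme that attaches GPI anchors (r = 0.99), and Tmem35b (r = 0.98). With 6 libraries and 10649 candidates, such ranks describe these libraries only.

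Of the 9 genes, 8 were tested in TECs. Log2 fold changes were above 0 for 4 (Cfb and the 3 C1q chains) and below 0 for 4 (C3, C4b, Cd59a and Cr1l), with a median of -0.18 against 0.01 over all 14734 genes. No member had an unadjusted p-value below 0.05, where 12.8% of all genes did (5.52% lower and 7.23% higher), and no gene of the table had an adjusted p-value below 0.05 (0%, 1879 genes at an unadjusted p below 0.05). Limma-voom called 0 genes as well. DESeq2, run on all 29120 genes with a count, called 247 genes in TECs at an adjusted p below 0.05. None of the 8 tested members was among them, and the DESeq2 result for Cd55 was not read. Run on the 14734 genes alone, DESeq2 called 308 and again no member. Over the 29120 genes its lowest p-value for a tested member was that of C3 (unadjusted p = 0.122, adjusted p = 0.502). With edgeR and no expression filter, C3 had an unadjusted p of 0.0197 and an adjusted p of 0.331. With 3 libraries against 3, an exact permutation test cannot give a two-sided p below 0.1. Log2 fold changes were above 0 for all 5 listed distal tubule and collecting duct genes, 4 with an unadjusted p below 0.05 (edgeR). They were above 0 for 5 of 6 proximal tubule, 3 of 3 thick ascending limb and 4 of 8 injured tubule genes. Among the last, Havcr1 had -3.08 (unadjusted p = 0.000588, adjusted p = 0.178 from edgeR). The part of these differences in the member values was not tested.

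**Figure D3:**
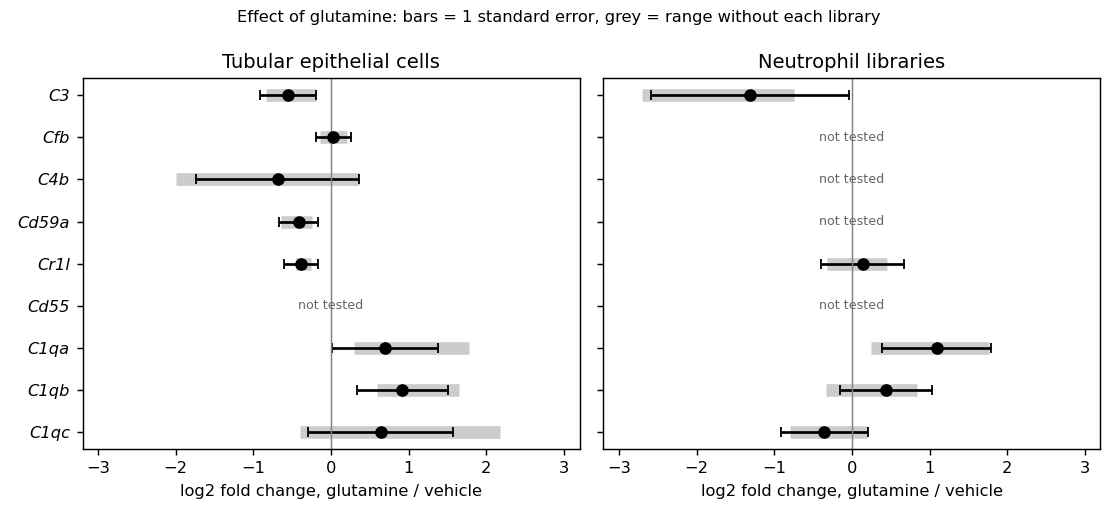
Log2 fold change of glutamine against vehicle for the complement genes tested in tubular epithelial cells and in neutrophil libraries, with bars of 1 standard error from edgeR's fit and the range of fits that each left out 1 library in grey. C3, C4b, Cd59a and Cr1l lie below 0 in epithelial cells while the C1q chains lie above 0, and no gene passed the test.

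In the PMN libraries the C1q chains stood at the top of the order. Per kilobase, C1qb had a mean of 1485 CPM, C1qa 963 and C1qc 436, whereas Cr1l had 47.9, C3 21.1, Cd59a 8.20, Cd55 1.70, Cfb 1.32 and C4b 1.05. The means of the last 4 rest on 1 library each. C1qc lay above Cr1l in 6 of 6 libraries with ranges apart. Together the C1q chains took between 0.131% and 0.630% of all counts of a PMN library, against 0.000462% to 0.00216% in TECs. The 2 tables were scaled separately and no test was made between them.

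C1qa, the A chain, had 287, 508 and 1123 CPM in the vehicle libraries and 527, 993 and 2568 CPM in the glutamine libraries. The values overlapped, with vehicle 3 above glutamine 1 and 2. Means of 639 ± 433 and 1363 ± 1070 CPM (SD, n = 3 each) gave a log2 fold change of 1.09 (SE 0.70, unadjusted p = 0.163, adjusted p = 0.99995 from edgeR). Without glutamine 3 this was 0.24.

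C1qb, the B chain, had 919, 1417 and 1775 CPM with vehicle and 587, 1605 and 3390 CPM with glutamine. The lowest and the highest library were both glutamine libraries. The log2 fold change was 0.44 (SE 0.59), and without glutamine 3 it was -0.33.

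C1qc, the C chain, had 198, 603 and 968 CPM with vehicle and 348, 602 and 429 CPM with glutamine. Here the glutamine libraries lay within the vehicle range. Its log2 fold change was -0.36 (SE 0.56), and 0.19 without vehicle 3.

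The chains are used in equal numbers in the C1q protein, but their counts did not keep 1 ratio between libraries. Counts of C1qa were 0.842 to 1.65 times those of C1qc in 5 PMN libraries and 5.98 times in glutamine 3. In that library C1qc made up 6.72% of the C1q counts, against 14.1% to 25.0% in the others. Glutamine 3 also had the lowest neutrophil sum (29790 CPM) and the highest sum of defining macrophage genes (1299 CPM, of which Csf1r made up 999.6, against 361 to 643 CPM in the others). The sum of all 14 macrophage genes was highest in vehicle 3 (13945 CPM, against 13304 CPM in glutamine 3), and Tyrobp (2316 CPM) was at its lowest in glutamine 3. Antigen-presentation genes were at 16574 CPM there, second to glutamine 2 at 18446 CPM. The part of other cells in these values was not tested.

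**Figure D4:**
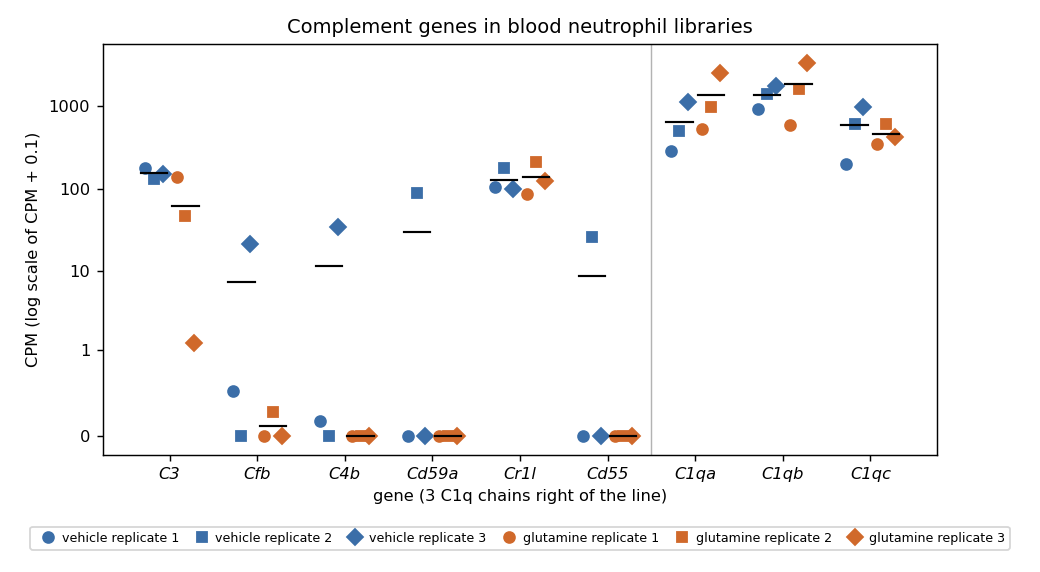
Level of the 9 complement genes in libraries labelled as blood neutrophils, in CPM on a log scale of CPM + 0.1, with 1 point per library, vehicle in blue and glutamine in orange. Black lines are the means of 3 libraries. The C1q chains lie between 198 and 3390 CPM in all 6 libraries, while C4b, Cfb, Cd55 and Cd59a are above 1 CPM in a single vehicle library each.

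C3 was counted in PMN with 179, 132 and 152 CPM in the vehicle libraries. The glutamine libraries had 139, 46.2 and 1.25 CPM, which are 2639, 982 and 25 counts. The vehicle values were close together while those with glutamine were widely spread, glutamine 1 lying among the vehicle libraries and glutamine 2 and 3 below all of them. Means were 154 ± 23.8 and 62.3 ± 70.5 CPM (SD, n = 3 each), with a log2 fold change of -1.31 (SE 1.27, unadjusted p = 0.338, adjusted p = 0.99995 from edgeR). The lowest library was again glutamine 3, the one with the lowest neutrophil sum. Leaving out 1 library at a time gave values from -2.71 to -0.74, and limma-voom gave -2.94 (unadjusted p = 0.0677).

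Cr1l was the one membrane regulator found in every PMN library. It had 104, 177 and 99.1 CPM with vehicle and 86.5, 208 and 123 CPM with glutamine. The groups interleaved, and the log2 fold change was 0.14 (SE 0.54). Its sign turned in 3 of the 6 fits that each left out 1 library, which gave values from -0.33 to 0.45.

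The other 4 genes came from 1 library each and were removed by the expression filter. Cd59a had 1952 counts and Cd55 567 counts in vehicle 2, and both had 0 in the other 5 libraries. This is the library with the endothelial genes, among them Kdr at 13580 counts there and 0 elsewhere, and it also held 263 counts of Cd59b against 0 to 2 in the others. C4b had 711 counts and Cfb 452 counts in vehicle 3, with at most 1 and 5 counts in any other library. For each, a count of 0 in a library allows up to 3 counts, so no more than 0.158 CPM. C4a and Cd55b were at 0 in all PMN libraries. The part of other cells in these single-library values was not tested.

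Of the 9 genes, 5 were tested in PMN, where 3 had log2 fold changes above 0 and 2 below 0, with a median of 0.14 against -0.000403 over all 10134 genes. None had an unadjusted p-value below 0.05, where 3.48% of all genes did (1.42% lower and 2.06% higher), and none had groups that did not overlap. Such groups occurred in 5.86% of genes in the higher and 4.64% in the lower direction. No gene of the table had an adjusted p-value below 0.05 with edgeR (0%, 353 genes at an unadjusted p below 0.05), and limma-voom called 0. DESeq2 called 326 of 20278 genes with a count, or 239 when run on the 10134 alone. None of the 5 tested members was called either way. The DESeq2 results for C4b, Cfb, Cd55 and Cd59a over the 20278 genes were not read.

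The rest of the cascade was read from a list of 55 complement genes by role, the 9 included, of which 53 had a row used here. In TECs 25 of them were tested, 13 with log2 fold changes above 0 and 12 below, with a median of 0.03. By role, 3 of 7 classical initiation genes were above 0, both lectin initiation genes, 1 of 2 alternative pathway genes, the 1 terminal component, 1 of 5 fluid-phase regulators, 2 of 4 membrane regulators and 3 of 4 receptors. One of the 25 had an unadjusted p below 0.05, where 12.8% of all tested genes did. This was C5ar1, the receptor of the anaphylatoxin C5a, with 2.17, 0.806 and 0.102 CPM in vehicle and 5.29, 3.01 and 4.17 CPM in glutamine libraries. All glutamine libraries were above all vehicle libraries, as in 9% of tested genes in this direction. The log2 fold change of C5ar1 was 2.01 (SE 0.86, unadjusted p = 0.0388, adjusted p = 0.366 from edgeR), on at most 44 counts in a library. C5ar1 passed the expression filter through the glutamine libraries, with 22, 9 and 1 counts in the vehicle libraries, and no conclusion is drawn from its test. Of the 9 tested genes of the macrophage list, 7 had log2 fold changes above 0, with 3 apart in the higher direction (Mertk, Ctss and Ms4a7), 0 in the lower and 6 overlapping. Of these 3, Ms4a7 passed the expression filter through the glutamine libraries, with 0.306 to 0.888 CPM in the vehicle libraries. Of the 7 tested neutrophil genes, 6 were above 0, with 1 apart in the higher direction (Il1r2), 0 in the lower and 6 overlapping. Ptprc was apart as well, at 0.102 to 1.52 CPM with vehicle and 1.81 to 2.74 CPM with glutamine. This rests on 15, 17 and 1 counts with vehicle and 19, 9 and 25 counts with glutamine. It did not pass the test (unadjusted p = 0.229, adjusted p = 0.620 from edgeR). The part of leukocytes in the C5ar1 values was not tested.

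In PMN 16 of the list were tested, 10 with log2 fold changes above 0 and 6 below, with a median of 0.15. One of the 16 had an unadjusted p below 0.05, where 3.48% of all tested genes did. C3ar1, the receptor of C3a, had 14.8, 86.7 and 42.5 CPM with vehicle and 285, 145 and 146 CPM with glutamine. Every glutamine library exceeded every vehicle library, as in 5.86% of tested genes, and the log2 fold change was 2.003 (SE 0.76, unadjusted p = 0.0335, adjusted p = 0.99995 from edgeR). No other listed gene had an unadjusted p below 0.05 in PMN. Of the 14 tested macrophage genes, 10 had log2 fold changes above 0, with 1 apart in the higher direction (Laptm5), 1 in the lower (Fcgr1) and 12 overlapping, and of the 10 tested neutrophil genes 6 were above 0, with 2 apart in the higher direction (Mmp9 and Il1r2) and 8 overlapping. Ptprc was apart as well, at 316 to 569 CPM with vehicle and 756 to 1149 CPM with glutamine. So was Cd79b, a chain of the B cell receptor complex, at 0 counts in all 3 vehicle libraries and 18.5 to 31.4 CPM with glutamine. Cd79b passed the expression filter through the glutamine libraries. Of the other listed B cell genes, Ms4a1 overlapped, Cd79a had 10 counts in vehicle 2 and 0 elsewhere, and Pax5 was at 0. All 4 monocyte genes had log2 fold changes below 0 with overlapping groups. The part of other cells in the C3ar1 values was not tested. The groups of Itgax, the integrin chain of complement receptor 4, were also apart, with 0, 0 and 992 counts with vehicle and 1704, 1152 and 1553 counts with glutamine. Itgax passed the expression filter through the glutamine libraries and was picked out after its values were seen, and its log2 fold change of 2.23 (SE 2.61) had an unadjusted p of 0.421. C5ar1 was abundant in both PMN groups, with 1516 ± 159 and 2030 ± 538 CPM (SD, n = 3 each, adjusted p = 0.99995 from edgeR).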

How the data were processed

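RNA of sorted TECs and of blood PMN was reverse transcribed from the polyA tail and sequenced as single-end reads of 50 bases. The submitters' processing notes name mm10, Trim Galore 0.6.4, Salmon 1.0.0, FastQC, MultiQC and DESeq2. For TECs the authors deposited unnormalized estimated counts, 1 row per gene symbol. The PMN table, in other form, held the same kind of deposited estimated counts, resaved by a spreadsheet program: 3.2% of its cells carried extra points and 0.391% had become dates, and these were decoded. Of the members, Cd59a and Cr1l had cells with extra points. Each PMN library had 2 columns, which were averaged (Pearson r = 0.995 to 0.996 on a log2 scale, against 0.773 to 0.826 between libraries). Of the values per sample, 0 columns were left unused. Planned as counts, both tables were rounded to whole counts.

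Each table was fitted separately and whole with edgeR 4.0.16 (R 4.3.3): TMM scaling, the default expression filter, the quasi-likelihood test and Benjamini-Hochberg adjustment over all genes, with a threshold of 0.05. Standard errors come from the fold change and the F statistic. Alternatives were DESeq2 1.42.0, limma-voom (limma 3.58.1), other scalings and filters, single PMN columns and leaving out each library. DESeq2 on the genes passing the edgeR filter was added after seeing the data. The labels do not say that libraries are separate mice, and p-values then measure only the spread between these libraries, which may be technical. Promoter windows came from RefSeq and positions from GENCODE M21. Named were the 9 members, listed complement genes with an unadjusted p below 0.05, second copies of members, and the 5 genes most like C3 and the C1q sum. Some genes of the lists are not reported here. The members and lists were chosen with earlier results of these data known.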

Additional observations from a re-analysis of the deposited data

How the results depend on the processing

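No member that passed the expression filter of its table had an adjusted p-value below 0.05 under any alternative run. Alternative results for Cd55 in TECs and for C4b, Cfb, Cd55 and Cd59a in PMN were not read. The count of genes past the threshold in TECs was 0 with edgeR, 247 with DESeq2 on all 29120 genes with a count, 308 with DESeq2 on the 14734 genes edgeR tested (added after seeing the data) and 425 with edgeR without an expression filter, and 0 to 36 when 1 library was left out (36 without glutamine 2 and 4 without vehicle 5). In PMN it was 0 with edgeR, 326 with DESeq2 on 20278 genes and 239 with DESeq2 on the 10134 edgeR tested, and 0 under the others. Signs turned only when a library was left out. In TECs this held for Cfb (-0.14 to 0.21, negative without glutamine 2, at -0.02 without vehicle 3 and at -0.09 without vehicle 4), C1qc (-0.40 to 2.18, negative without glutamine 2) and C4b (-1.998 to 0.36, positive without vehicle 5). In PMN it held for Cr1l (-0.33 to 0.45, negative without glutamine 2, vehicle 1 or vehicle 3), C1qb (-0.33 to 0.83) and C1qc (-0.80 to 0.19). The cause was not tested. The other members kept their sign, with C3 at -0.84 to -0.19, Cd59a at -0.64 to -0.24, Cr1l at -0.46 to -0.26, C1qa at 0.30 to 1.78 and C1qb at 0.59 to 1.65 in TECs, and C3 at -2.71 to -0.74 and C1qa at 0.24 to 1.77 in PMN. Leaving out PMN vehicle 1 shifted all genes by a median of -0.12 on the log2 scale. Low counts limit Cd55 and the C1q chains in TECs. No paired analysis was possible because number 3 alone occurs in both arms of the epithelial cells and neutrophil numbers carry no pairing.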
